A study of Mus musculus with 8 samples.

Results

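The long-chain acyl-CoA synthetase genes Acsl1, Acsl3, Acsl4 and Acsl5 and the acyl-CoA thioesterase genes Acot1, Acot2, Acot3, Acot4, Acot8 and Acot12 were followed in liver RNA of db/db mice. These 10 genes were chosen by symbol and by what their enzymes do, with earlier results of these data known. All 10 were found among the 21532 genes measured, and all 10 were among the 15989 genes tested, those whose normalized counts averaged 10 or more over the mice. Male db/db mice, in which leptin signaling is lost and obesity and diabetes develop, were used. From 8 weeks of age, the mice received control or AF1 peptide at 5 mg/kg body weight by retro-orbital injection, 2 times per week for 5 weeks. AF1 peptide is a synthetic piece of estrogen receptor α joined to a TAT sequence that carries it into cells, and the labels name the other arm only as control. Each group held 4 mice with 1 library per mouse. All 8 mice carried the db/db genotype, so no lean liver entered a comparison.

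Long-chain fatty acids enter metabolism as thioesters of coenzyme A. Acyl-CoA synthetases use ATP to attach coenzyme A to a free fatty acid, and the product can be burned, built into triglycerides and phospholipids, or used to modify proteins. Acyl-CoA thioesterases run the opposite step, releasing the fatty acid and free coenzyme A. In the liver, ACSL1 is the major isoform, ACSL5 sits on mitochondria and the endoplasmic reticulum, ACSL3 lies on lipid droplets and the endoplasmic reticulum, and ACSL4 prefers arachidonic acid. Among the thioesterases, ACOT1 is cytosolic, ACOT2 mitochondrial, and ACOT3, ACOT4 and ACOT8 peroxisomal, while ACOT12 is a cytosolic enzyme that hydrolyzes acetyl-CoA. The genes Acot1 to Acot6 form a cluster of close copies, and several of them, like Acsl1, are known targets of the fasting receptor PPARα.

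Libraries held 23031880 to 45117528 reads. A gene was called when limma gave an unadjusted p value under 0.05, the threshold of the study, with more than 1.3-fold change. By this rule 3.69% of all tested genes were called, 1.79% higher and 1.90% lower with AF1 peptide. The p value alone was under the threshold for 6.19% of genes, 3.16% higher and 3.03% lower, and for 3.90% the groups did not overlap. After Benjamini-Hochberg adjustment over all genes 0 passed 0.05 in limma and in edgeR and 3 passed in DESeq2, where 990, 1036 and 1008 genes had an unadjusted p value under 0.05. Of the 10 genes, 1 was called higher and 1 lower. Rescaling the libraries to equal totals lowered the share of calls that were higher from 48.5% to 16.9%. AF1 peptide replicate 1 stood apart from the other libraries, so that values without this mouse are given beside the results it touches. Without it, 2.86% of all tested genes were called higher and 3.07% lower. All 8 hepatocyte markers were present, and their summed normalized count was 1712609 in this mouse, 2109669 to 2535892 in the other treated mice and 2412960 to 2567267 in control mice. The summed count of 7 Kupffer cell markers was 2379 in this mouse, against 5902 to 6145 in the other treated mice and 5238 to 6635 in control mice. The summed counts of sinusoidal endothelium (6 markers, 4200 to 4850 in control and 3828 to 4669 in treated mice), stellate cells (7 markers, 4738 to 6862 and 3662 to 7772), cholangiocytes (5 markers, 123 to 233 and 137 to 214) and lymphocytes (6 markers, 94.5 to 138 and 74.7 to 160) overlapped between the groups. Of 6 adipocyte markers 3 were analysed, with sums of 31.0 to 110 in control and 12.1 to 76.7 in treated mice, and of 6 pancreas markers 1 was analysed, at 193 to 250 and 181 to 221. In whole liver, fewer cells of a type and less RNA per cell cannot be told apart. The part of these marker shifts in the results below was not tested.

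The sequences bear on how well the copies can be told apart. Over the aligned coding bases of GENCODE M21 transcripts, Acot1 and Acot2 were identical at 95.2% of 1239 positions, with 1 identical run of 273 bases, whereas Acsl1 and Acsl5, the closest pair for Acsl5, were identical at 65.2%. The stretch below starts at the first coding base of Acot1 and at coding base 124 of Acot2, whose longer coding sequence encodes an extra N-terminal part. It spans 120 bases, written 5′ to 3′ with the 13 bases that differ in capitals.
Acot1: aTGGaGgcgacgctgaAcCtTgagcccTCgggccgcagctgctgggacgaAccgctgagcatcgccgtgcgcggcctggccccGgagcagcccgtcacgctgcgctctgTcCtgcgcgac
Acot2: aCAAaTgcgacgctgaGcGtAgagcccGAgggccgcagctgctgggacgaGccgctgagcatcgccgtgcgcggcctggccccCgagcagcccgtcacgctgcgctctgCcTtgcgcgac
A sequencing read that falls between the capitals carries no base that separates these genes. Of the 50-base words in the protein-coding transcripts of Acot1, 32.7% also occurred in transcripts of other genes, mostly of Acot2. The share was 27.7% for Acot2 and 19.1% for Acot3. Much of the latter came from Gm49366 (11.0%), a transcript model that runs through Acot3 and Acot4, and the shares with Acot5 and Acot1 were 5.98% and 4.94%. For Acot4 the share was 4.74% and for Acsl3 3.92%, while Acsl1, Acsl4, Acot8 and Acot12 had 0 shared words. Acsl5 shared 0.126% of its words. The counts of Acot1, Acot2 and Acot3 are therefore uncertain to the extent that reads were split among the copies, and the counting rule for such reads is not given in the sources used here.

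The levels of the synthetases were led by a pair of genes. Per kilobase of exon, in normalized counts, Acsl5 had the highest median level in control mice (2751, range 2355 to 2891) and Acsl1 the second (2232, range 1960 to 2502), and these ranges overlapped. Acsl3 and Acsl4 lay at the bottom of the order, with medians of 153 and 69.9 per kilobase in control mice and ranges that did not overlap each other. Of all counts on the 4 synthetases, Acsl1 and Acsl5 made up 94.6 to 96.9% in the 8 mice. The 6 thioesterases among the 10 genes lay between these pairs. Acot2, Acot12 and Acot3 had control medians of 779, 676 and 557 per kilobase, with overlapping ranges between neighbors in this order. Acot1, Acot8 and Acot4 followed at 240, 223 and 191, again with neighbors that overlapped, Acot4 with Acsl3 too, and all control values of Acot1 were below all those of Acot3. In AF1 peptide-treated mice the medians of Acsl1 and Acsl5 stood at 2314 and 2130 per kilobase. That of Acot3 stood at 846, the highest of these 6 thioesterases. Exon lengths were those of the GENCODE M21 annotation, and a different set of transcripts would move these levels.

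**Figure D1:**
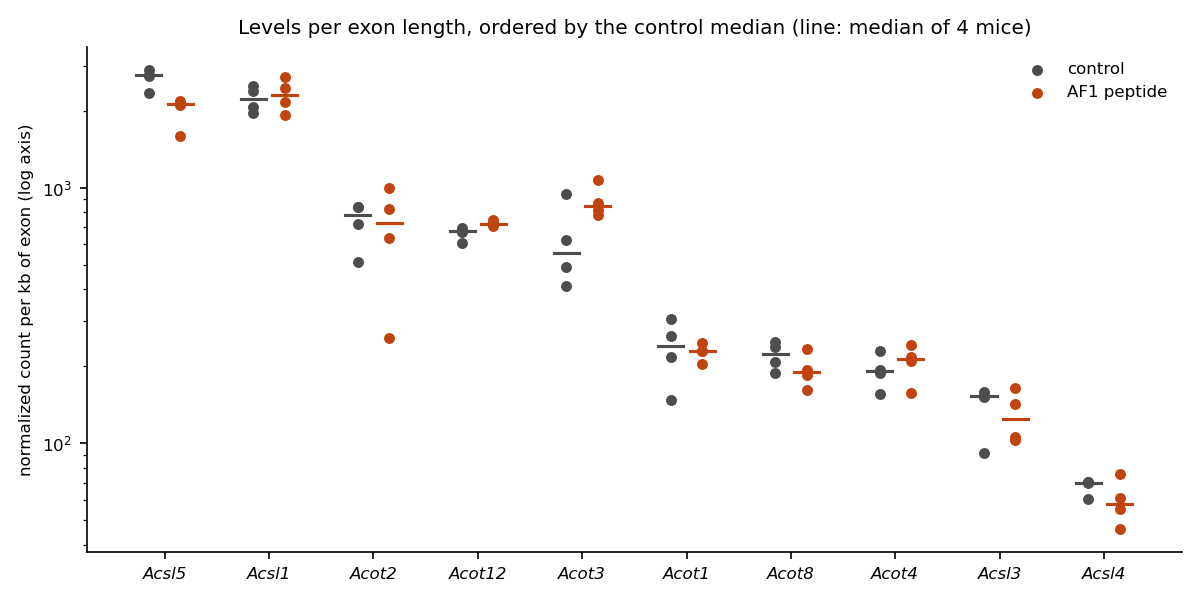
Normalized counts per kilobase of exon (log axis) of the 10 genes in each of 4 control (grey) and 4 AF1 peptide-treated (orange) mice, ordered by the control median, with lines at the medians. Acsl5 and Acsl1 stand above all thioesterases shown, and Acsl5 moves from 2751 to 2130.

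Among the synthetases, Acsl5 was decreased in the livers of AF1 peptide-treated mice. ACSL5 activates long-chain fatty acids, and its gene is known to be induced by insulin and the lipogenic factor SREBP-1c. Its normalized counts were 11761, 12267, 9991 and 11583 in control replicates 1 to 4 and 6777, 9255, 8925 and 9150 in AF1 peptide replicates 1 to 4. All treated mice lay below all control mice, and replicate 1 was the lowest of the treated mice by a wide margin. On the log2(normalized count + 1) scale the change was -0.43 (standard error 0.13), or 25.6% lower with a 95% confidence interval of 8.95 to 39.2% lower (n = 4 per group), with a limma p value of 0.00834 unadjusted and 0.763 after Benjamini-Hochberg adjustment. The two-sided exact permutation test gave p = 0.0286, the smallest value that 4 mice against 4 allow. In the lower direction, 1.85% of all tested genes had groups that did not overlap, and Acsl5 was 1 of the 4 synthetases. Without AF1 peptide replicate 1, Acsl5 was lower by 19.9% (log2 fold change -0.32, with an unadjusted limma p value of 0.0117). This is less than 1.3-fold and so no longer a call, and the groups still did not overlap. With that mouse left out, separation in the lower direction was more common, at 4.80% of all tested genes, and 5.48% were lower by the p value alone. The unadjusted p value was under 0.05 in all 19 alternative analyses, at 0.00228 to 0.0256, and the adjusted p values ranged from 0.418 to 0.994. Zdhhc6, a palmitoyltransferase gene that overlaps Acsl5 on the opposite strand, averaged 1058 ± 78.1 normalized counts in control mice against 1044 ± 113 with AF1 peptide (SD, n = 4 each).

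Acsl1 was not shown to differ. It had 10435, 8605, 8174 and 10013 normalized counts in control replicates 1 to 4 and 10235, 11297, 8062 and 9070 in AF1 peptide replicates 1 to 4. The groups overlapped widely, with the highest and the lowest value both in treated mice. The log2 fold change was 0.05 with a 95% confidence interval of -0.25 to 0.35, and it was -0.04 with equal totals. The interval leaves room for a level up to 27.7% higher.

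Set against Acsl1 within each library, Acsl5 was the more abundant of the pair by count in every control mouse, with 1.13, 1.43, 1.22 and 1.16 counts of Acsl5 per count of Acsl1. In AF1 peptide replicates 1 to 4 this ratio was 0.662, 0.819, 1.11 and 1.01. The treated values all lay below the control values, but replicate 3 only narrowly (1.11 against 1.13). This ratio does not depend on the scaling of the libraries. It was chosen after the values were seen and is given without a test. Acsl1 and Acsl5 together had 18165 to 22196 counts in control and 16986 to 20551 in treated mice, and these ranges overlapped.

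The remaining synthetases were expressed at low levels and their groups overlapped. Acsl3, which supplies acyl-CoA to growing lipid droplets, had 625, 361, 605 and 600 normalized counts in control and 560, 418, 649 and 407 in treated mice. Control replicate 2 was the lowest of all mice, treated replicates 2 and 4 followed, and the other mice lay above them, and the log2 fold change was -0.10 (95% confidence interval -0.56 to 0.36). Acsl3 shares its locus with Utp14b, a retrogene on the same strand, which averaged 46.5 ± 6.84 counts in control mice against 43.4 ± 18.3 with AF1 peptide (SD, n = 4 each). Acsl4, whose product channels arachidonic acid into phospholipids, had 371, 375, 322 and 374 counts in control and 405, 245, 324 and 294 in treated mice. AF1 peptide replicate 1 had the highest Acsl4 count of all 8 mice, and replicates 2 and 4 had the lowest. With all mice the log2 fold change of Acsl4 was -0.21 (95% confidence interval -0.54 to 0.13, exact permutation p = 0.257). Without AF1 peptide replicate 1 it was -0.33 with an unadjusted limma p value of 0.022, smaller than 1.3-fold, so that Acsl4 was not called in either case. ACSL4 is abundant in macrophages, and the Kupffer cell markers were lowest in replicate 1, the mouse with the highest Acsl4 count. The part of this in the Acsl4 values was not tested.

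**Figure D2:**
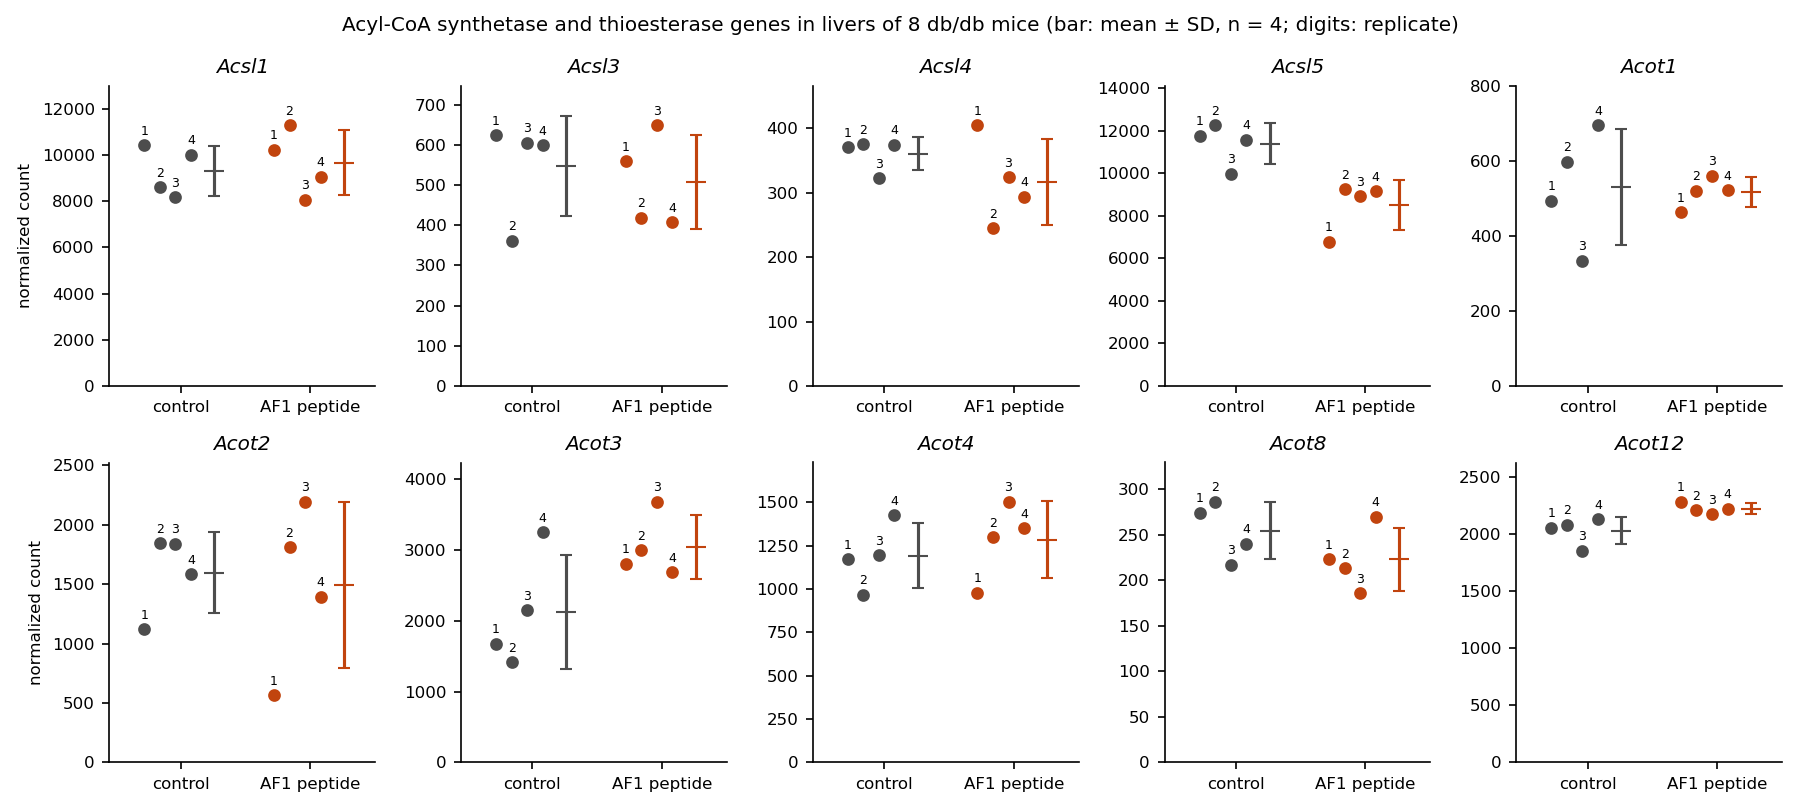
Normalized counts of the 10 genes in each mouse (digits are replicate numbers), with bars at the mean ± SD of 4 mice per group, control in grey and AF1 peptide in orange, each axis from 0. Acsl5 is lower and Acot12 slightly higher in all treated mice, Acot3 is higher in treated mice than in 3 of the 4 control mice, and Acot2 is lowest in AF1 peptide replicate 1 (565).

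Among the thioesterases, Acot3 was increased. ACOT3 hydrolyzes long-chain acyl-CoA inside peroxisomes. Its normalized counts were 1681, 1417, 2149 and 3255 in control replicates 1 to 4 and 2812, 3003, 3687 and 2685 in AF1 peptide replicates 1 to 4. All treated mice lay above control replicates 1 to 3, and control replicate 4 lay above 3 of the treated mice. The log2 fold change was 0.58 (standard error 0.23), or 49.6% higher with a 95% confidence interval of 5.80 to 112% and an unadjusted limma p value of 0.0268, or 0.763 after Benjamini-Hochberg adjustment. All 4 treated mice lay above the control median of 1915. The two-sided exact permutation test gave p = 0.114. Control replicate 4, on which the overlap rests, also had the highest summed count of 5 red blood cell markers, 123375 against 34147 to 44635 in the other control mice and 27111 to 51923 in treated mice, and the part of this in the Acot3 values was not tested. Acot3 was 1 of 6 thioesterases, where 1.79% of all tested genes were called higher. The call was less firm than that of Acsl5. The unadjusted p value was 0.0521 in edgeR, 0.0824 with the variance of Acot3 alone and 0.0833 with equal totals, and the log2 fold change was 0.49 to 0.58 in these settings. It was also above 0.05 without control replicate 1 (0.0758), control replicate 2 (0.0827) or AF1 peptide replicate 3 (0.0732). Without AF1 peptide replicate 1 the log2 fold change was 0.62, with an unadjusted limma p value of 0.0215, and without control replicate 4 it was 0.81. The adjusted p values of Acot3 ranged from 0.476 to 0.994 over the 19 alternatives.

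None of the close copies of Acot3 in this cluster was called by limma. Acot1, the cytosolic enzyme, had 494, 598, 334 and 696 normalized counts in control and 464, 521, 561 and 522 in treated mice. All treated mice lay within the control range, and the log2 fold change was 0.01 (95% confidence interval -0.43 to 0.45), or -0.08 with equal totals. Acot2, its mitochondrial counterpart, had 1122, 1842, 1840 and 1584 counts in control and 565, 1810, 2194 and 1394 in treated mice. The lowest count, in AF1 peptide replicate 1, was well under every control mouse, and replicate 3 was above every control mouse. The log2 fold change of Acot2 was -0.24 (95% confidence interval -1.04 to 0.56) with all mice and 0.18 without replicate 1, so its direction rests on that mouse. Acot4, a peroxisomal enzyme for dicarboxylic acyl-CoA such as succinyl-CoA, had 1173, 968, 1197 and 1427 counts in control and 978, 1300, 1504 and 1352 in treated mice. Treated replicates 2 to 4 exceeded control replicates 1 to 3, whereas replicate 1 lay near the bottom, and the log2 fold change was 0.10 (95% confidence interval -0.24 to 0.44) with all mice and 0.23 without replicate 1, with an unadjusted limma p value of 0.0975. The cluster members Acot5 and Acot6 had low counts, with log2 fold changes of -0.39 (exact permutation p = 0.257) and -0.37 (exact permutation p = 0.114), and without replicate 1 these were -0.32 and -0.24. Summed over Acot1 to Acot6, the counts were 4625, 5048, 5679 and 7158 in control and 4928, 6771, 8077 and 6146 in treated mice. The way counted reads were divided among these copies does not change such a total. Reads left uncounted or given to other genes would still be missing from it. These sums overlapped between the groups.

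The thioesterases outside the cluster were Acot8 and Acot12. Acot12 had 2054, 2078, 1854 and 2126 normalized counts in control and 2282, 2208, 2169 and 2218 in treated mice. Every treated mouse was above every control mouse, but the lowest treated mouse exceeded the highest control mouse by little. The log2 fold change was 0.13 (95% confidence interval -0.05 to 0.32), or 9.56% higher, with an unadjusted limma p value of 0.146 and the smallest possible exact permutation p of 0.0286. With the variance of Acot12 alone, which was small in both groups (coefficients of variation of 5.91% in control and 2.10% in treated mice), the unadjusted p value was 0.0294. With equal totals the log2 fold change was 0.04. In the higher direction, 2.05% of all tested genes had groups that did not overlap. Acot8, a peroxisomal enzyme of broad substrate range, had 274, 287, 217 and 240 counts in control and 223, 214, 186 and 270 in treated mice. The groups overlapped, and the log2 fold change was -0.19 (95% confidence interval -0.52 to 0.13). Snx21, which overlaps Acot8 on the opposite strand, had a log2 fold change of -0.02.

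**Figure D3:**
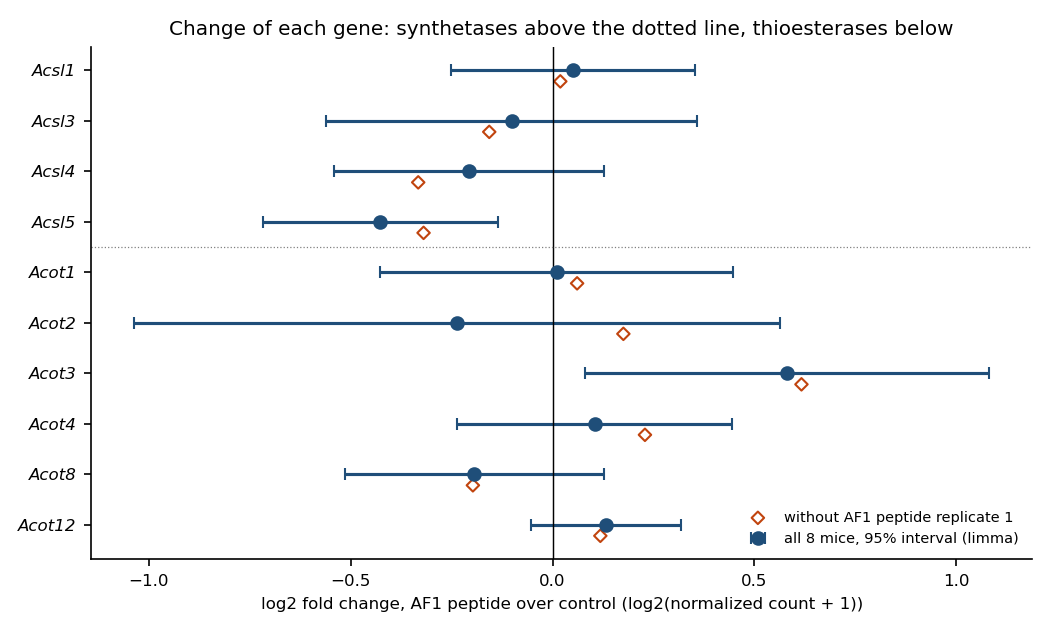
Log2 fold change of each gene (AF1 peptide over control, log2(normalized count + 1)) with its 95% confidence interval from limma over 8 mice (blue), and the estimate without AF1 peptide replicate 1 (open diamonds). The intervals of Acsl5 (-0.72 to -0.14) and Acot3 (0.08 to 1.08) exclude 0, and Acot2 crosses 0 when replicate 1 is left out.

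The 2 classes were then set against each other in each mouse. The mean log2(normalized count + 1) of the 4 synthetases minus that of the 6 thioesterases was 1.32, 0.99, 1.11 and 0.94 in control replicates 1 to 4 and 1.23, 0.72, 0.74 and 0.72 in AF1 peptide replicates 1 to 4. Treated replicates 2 to 4 lay together below all control mice, and replicate 1 lay among the control mice. The mean difference was 1.09 ± 0.17 in control mice against 0.85 ± 0.25 with AF1 peptide (SD, n = 4 each), a shift of -0.24, or -0.36 without replicate 1. By summed counts, the mice held 3.41, 3.01, 2.52 and 2.42 synthetase counts per thioesterase count in control and 2.45, 2.34, 1.74 and 2.24 in treated mice. Treated replicates 2 to 4 lay below all control mice, and replicate 1 lay just above the lowest control mouse. In replicate 1 the position on the mean log2 scale came with the low counts of Acot2 and Acot4 and the high count of Acsl4, since its Acsl5 and Acot3 counts differed from control in the same directions as in the other treated mice. Of the 4 synthetases 3 had a lower estimate with AF1 peptide, with a median log2 fold change of -0.15, and of the 6 thioesterases 4 had a higher estimate, with a median of 0.06. Over all tested genes the median was -0.01, and 51.8% had a lower estimate. These are descriptions of 10 chosen genes, and no p value is given for them. Of 10 other tested thioesterases, given below, 8 had a lower estimate, with a median log2 fold change of -0.18.

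The ratio of the called genes was also lower in treated mice, and its groups did not overlap. Acsl5 (-0.43) and Acot3 (0.58) had the largest log2 fold changes of their classes and so carry much of the class difference. The other synthetases ranged from -0.21 to 0.05. Of the other thioesterases, Acot2 (-0.24) and Acot8 (-0.19) had lower estimates, and Acot1 (0.01), Acot4 (0.10) and Acot12 (0.13) higher ones. Counts of Acsl5 per count of Acot3 were 7.0, 8.66, 4.65 and 3.56 in control and 2.41, 3.08, 2.42 and 3.41 in treated mice. The lowest control value lay just above the highest treated value. Because this pair was picked for its opposite calls, the gap between the groups was built into the choice.

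**Figure D4:**
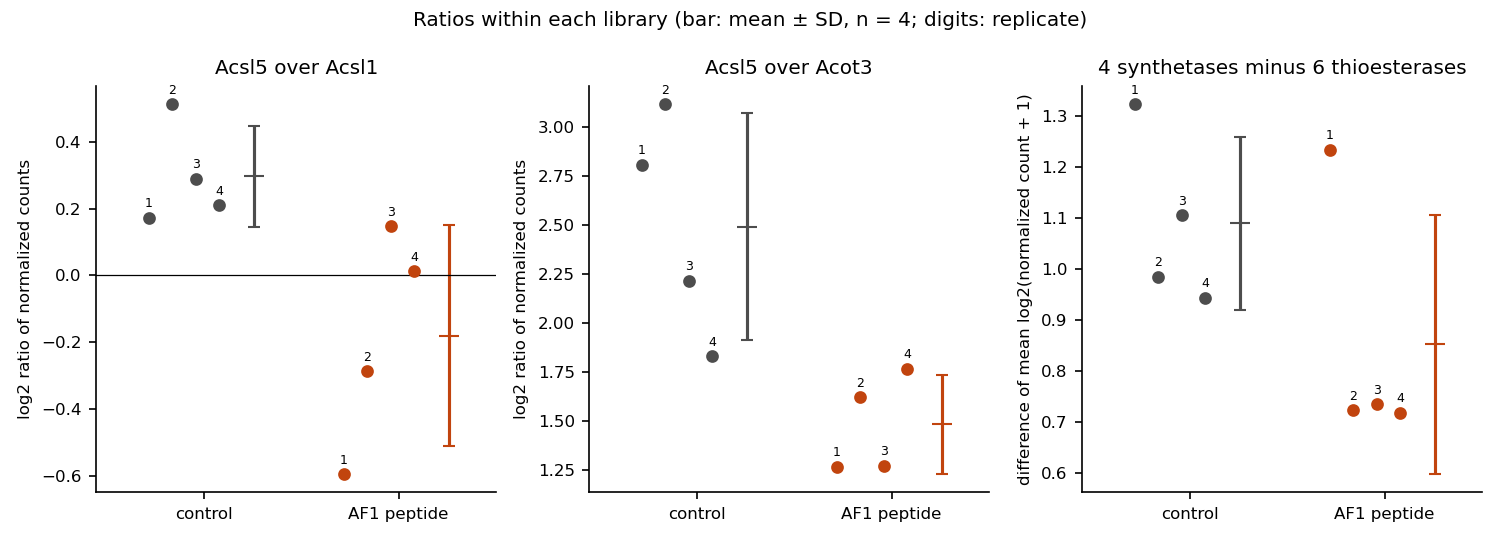
Log2 ratios of normalized counts of Acsl5 over Acsl1 and of Acsl5 over Acot3, and the difference of mean log2(normalized count + 1) between 4 synthetases and 6 thioesterases, in each mouse (digits are replicate numbers), with bars at the mean ± SD of 4 mice, control in grey and AF1 peptide in orange. The ratios of Acsl5 do not overlap between the groups, and AF1 peptide replicate 1 (1.23) lies among the control mice in the class difference.

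Promoter sequences were examined for the called genes, which moved in opposite directions. The windows below run from 250 bases before to 50 bases after the RefSeq start site on the plus strand of GRCm38.p6, at chr19:55253119-55253418 for Acsl5 and chr12:84051894-84052193 for the first of the start sites of Acot3. Capitals mark CCAAT boxes (CCAAT) and nuclear receptor half-sites (AGGTCA), each searched on both strands.
Acsl5: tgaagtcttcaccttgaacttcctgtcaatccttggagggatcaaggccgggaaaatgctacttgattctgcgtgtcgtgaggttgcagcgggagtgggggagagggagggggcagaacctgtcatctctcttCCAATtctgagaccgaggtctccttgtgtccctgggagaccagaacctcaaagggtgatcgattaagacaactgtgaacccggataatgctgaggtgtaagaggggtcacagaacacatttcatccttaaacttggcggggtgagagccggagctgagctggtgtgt
Acot3: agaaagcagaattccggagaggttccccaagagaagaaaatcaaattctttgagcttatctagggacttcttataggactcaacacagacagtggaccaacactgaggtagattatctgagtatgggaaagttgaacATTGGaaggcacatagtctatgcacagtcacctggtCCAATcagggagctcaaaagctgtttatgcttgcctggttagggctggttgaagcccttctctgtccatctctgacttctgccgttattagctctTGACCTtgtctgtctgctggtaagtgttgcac
The window of Acsl5 held 1 CCAAT box, and that of Acot3 held 2 CCAAT boxes and 1 half-site. A CCAAT box was found in 37.4% of all 32851 promoter windows and a half-site in 16.3%. The windows of Acot4 and Acot12 also held 1 half-site each. CCAAT boxes were also present in windows of the uncalled genes Acsl1, Acsl3, Acot1, Acot2, Acot4 and Acot8, and absent from those of Acsl4 and Acot12. None of the windows of the 10 genes held the longer direct repeat made of 2 copies of AGGNCA with 1 base between them, a pattern bound by PPARα (0.381% of all windows). The sterol element core TCACNCCAC was present in 1 of the 2 windows of Acsl1 (1.24% of all windows) and the E-box CACGTG in that of Acot4 (7.15%). Such matches are letters in a window and do not show that a factor binds there.

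Other genes of acyl-CoA metabolism were compared by lists. The shares over all tested genes were 1.79% called higher, 1.90% called lower and 3.03% lower by the p value alone. Of 21 other acyl-CoA synthetases, 14 were tested and 0 were called in either direction by limma, with a median log2 fold change of 0.03 and 1 lower by the unadjusted p value alone. This gene was Slc27a4, a fatty acid transport protein with synthetase activity, which averaged 1110 ± 204 counts in control mice against 873 ± 104 with AF1 peptide (SD, n = 4 each). Its log2 fold change was -0.34, with an unadjusted limma p value of 0.0383 and an exact permutation p of 0.171, and without AF1 peptide replicate 1 it was -0.28 with a limma p value of 0.0732. Slc27a3 of the same family came next, with a log2 fold change of 0.45 (exact permutation p = 0.114). Without AF1 peptide replicate 1, 1 gene of this list was called, the mitochondrial acetyl-CoA synthetase Acss1, with a log2 fold change of 1.01 against 0.53 with all mice. In that setting 2.86% of all tested genes were called higher. Of 13 other thioesterases, 10 were tested and 0 called, also 0 at an unadjusted limma p value under 0.05. Their median log2 fold change was -0.18, with 8 of 10 estimates lower. Over all tested genes the median was -0.01, and 51.8% had a lower estimate. The smallest p values were those of the lysosomal palmitoyl-protein thioesterase Ppt1 (log2 fold change -0.24, exact permutation p = 0.114) and of Acot6.

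The genes that supply, bind or use acyl-CoA gave few calls. With all mice, 1.90% of all tested genes were called lower and 1.79% higher, and 3.03% were lower and 3.16% higher by the p value alone. Groups did not overlap for 1.85% in the lower and 2.05% in the higher direction. Of 23 genes of coenzyme A supply and acyl-CoA handling, 0 were called by limma, 2 were lower by the unadjusted p value alone, and the median log2 fold change was -0.13. One was Dbi, the acyl-CoA binding protein that carries acyl-CoA through the cytosol, with 37168, 39240, 33803 and 38842 normalized counts in control and 23918, 31201, 30911 and 31812 in treated mice. All treated mice lay below all control mice, and the log2 fold change was -0.35 (exact permutation p = 0.0286, unadjusted limma p value 0.0394), or -0.25 without AF1 peptide replicate 1, with a limma p value of 0.073. The other was Crot, the peroxisomal carnitine octanoyltransferase, with a log2 fold change of -0.31 (exact permutation p = 0.0571, unadjusted limma p value 0.0377) and -0.32 without replicate 1. Without that mouse 1 gene of the list was called, the coenzyme A synthase gene Coasy, which was lower (-0.41, against -0.25 with all mice), where 3.07% of all tested genes were called lower. Of 19 genes that use long-chain acyl-CoA, only Gpam, the first acyltransferase of triglyceride synthesis, was called by limma, and it was lower (log2 fold change -0.57, exact permutation p = 0.0286, unadjusted limma p value 0.0496). Its estimate was -0.26 without replicate 1, where its count was 5009 against 10856 to 12144 in the other treated mice, and it was then less than 1.3-fold and not called. Dgat1, which completes triglyceride synthesis, was the only gene of this list higher by the unadjusted limma p value alone (0.0405), with a log2 fold change of 0.27 and groups that did not overlap. Without replicate 1 the value was 0.17, with a limma p value of 0.0965.

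Among 18 fatty acid synthesis genes 3 were called lower and 0 higher by limma, and 1 more, the desaturase Fads1 (log2 fold change -0.25), was lower by the p value alone. Over all tested genes 1.90% were called lower, 1.79% were called higher and 3.03% were lower by the p value alone. The called genes were Fasn (-0.47), the elongase Elovl5 (-0.73) and Gpam, and the median of the list was -0.26. Without AF1 peptide replicate 1, 0 of the 18 were called lower by limma, and the median was -0.16. Fasn and Elovl5 then had log2 fold changes of -0.28 and -0.37, still with unadjusted limma p values under 0.05, and Fads1 had -0.24 with a limma p value of 0.0507. Of 27 PPARα targets, 0 were called by limma, and the median log2 fold change was -0.12, or 0.02 without replicate 1. Ehhadh, a peroxisomal β-oxidation enzyme, had the smallest p value of this list (log2 fold change -0.35, exact permutation p = 0.143, unadjusted limma p value 0.0465), followed by the fatty acid uptake gene Cd36 (-0.33, exact permutation p = 0.171). Without replicate 1 Ehhadh was called lower (-0.38), the 1 call among the 27 genes, where 3.07% of all tested genes were called lower. With all mice, 6 genes of this list had a higher and 21 a lower estimate, where 51.8% of all tested genes had a lower one. The median of 0.02 without replicate 1 does not show this tilt.

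**Figure D5:**
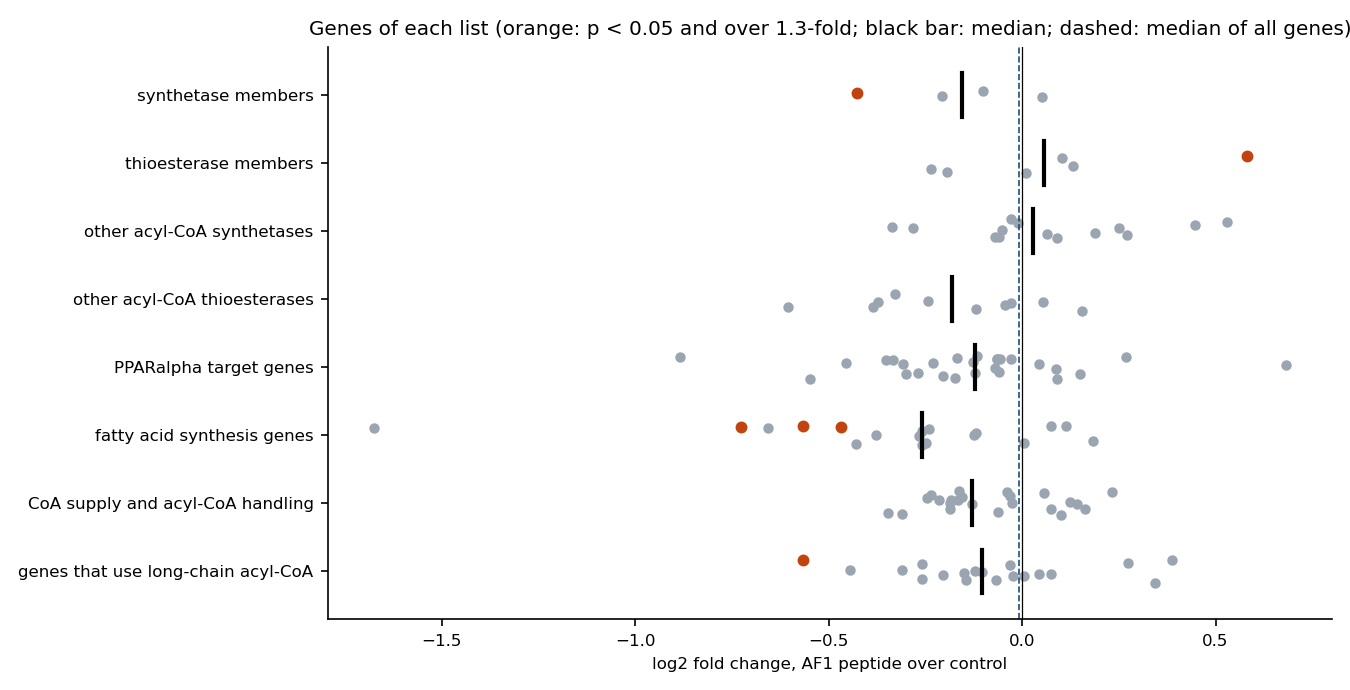
Log2 fold change (AF1 peptide over control) of each tested gene in the synthetase and thioesterase groups and in 6 lists of related genes, with called genes in orange, black bars at list medians and a dashed line at the median of all genes. The medians run from -0.26 for fatty acid synthesis to 0.06 for the 6 thioesterases.

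Genes that varied from mouse to mouse like Acsl5 and Acot3 were sought among the 10749 genes that averaged 100 normalized counts or more. After the group mean was removed from each mouse, the closest to Acsl5 over the 8 mice were Rit1 (Pearson r = 0.983), Dbi (0.981) and Hadha (0.973), a subunit of the mitochondrial trifunctional protein. Without AF1 peptide replicate 1 these values were 0.942, 0.931 and 0.932. Among the closest to Acot3 were Cecr2 (0.974) and Nfyc (0.973), with 0.974 and 0.980 without that mouse. Among the 10 genes themselves, Acot1 and Acot12 (r = 0.815, and 0.939 without replicate 1) and Acot3 and Acot4 (0.737 and 0.931) were the closest pairs. Acot2 and Acsl5 had an r of 0.682 over 8 mice and -0.304 without replicate 1. These correlations describe 8 libraries, and every one of the 10 genes had a closest gene with an r of 0.936 or more.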

How the data were processed

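RNA-Seq of frozen liver used TRIzol extraction and a stranded mRNA library kit. Per the methods, the authors ran TrimGalore 0.6.7 for trimming, HISAT2 2.2.1 for alignment, SAMtools 1.17 for sorting and GenomicAlignments (version given as 11.34.1) for counts per gene. The submitters' processing notes name the build mm39. The annotation, the use of strand and the normalization tool are not given in the sources used here. The deposited values are a signal of normalized counts, that is, reads divided by 1 size factor per library. From the size of the smallest steps in each library, whole reads were recovered (100% of 172256 values within 0.01 read of a whole number), and the size factors equaled those of the median-of-ratios method.

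Groups came from the sample labels. Two-sided limma tests (limma 3.58.1, R 4.3.3, with the intensity trend) were run on log2(normalized count + 1) of genes averaging 10 or more, and p values were adjusted by Benjamini-Hochberg over all 15989 genes. Fold changes on this scale understate changes of low genes. The test was checked on simulated counts. Alternatives were pseudocounts of 0.5 and 5, no filter or a minimum of 10 in every mouse, TMM or equal-total scaling, no trend in limma, own variances per gene, a replicate block, no fold threshold, and each mouse left out, besides the count tests of DESeq2 1.42.0 and edgeR 4.0.16, run on recovered whole reads. The genes and lists were chosen with earlier results of these data known. Named genes were the 10 enzymes and, per list, the called genes or otherwise the 2 with the smallest p values. For Acsl5 and Acot3 the 3 most alike genes were also to be named, of which 1 is not reported here. Acss1, Coasy, Dgat1, Fads1 and the ratios of gene pairs fall outside this rule and were chosen after their values were seen. Promoters were RefSeq windows (GRCm38.p6), and transcripts and exon lengths came from GENCODE M21, neither being the build of the files. Marker genes of other cell types were summed per library. Protein sequences were not analysed here. The limma p values set the difference between groups against the spread between mice, with 4 mice per group. In the main test, the variance of each gene was drawn toward a trend over all tested genes.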

Additional observations from a re-analysis of the deposited data

Results flagged for a closer look

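In each group of 4 mice, the gap of the highest or lowest mouse to its nearest neighbor was divided by the range of the group and set against Dixon's critical value at the 95% level. Of 26 groups tested, 4 had a mouse apart, where chance gives about 1.3. AF1 peptide replicate 1 was apart as the lowest treated mouse in Acsl5 (0.867) and as the highest treated mouse in the mean log2 difference between synthetases and thioesterases (0.966). Control replicate 2 was apart as the lowest control mouse in Acsl3 (0.905), with 361 normalized counts against 600 to 625 in the other control mice. Control replicate 3 was apart as the lowest control mouse in Acsl4 (0.918), with 322 counts against 371 to 375.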

How the results depend on the processing

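Of 190 values of the 10 genes under 19 alternatives each, 172 kept their direction and their side of the unadjusted p threshold. Acsl5 did so in all 19, as did Acsl3, Acot4 and Acot8. Equal totals turned the log2 fold change of Acsl1 to -0.041 and of Acot1 to -0.081, and left Acot3 at 0.49 without passing the threshold. edgeR gave Acot1 -0.042 and DESeq2 -0.037, and edgeR gave Acot3 0.52 without passing. With each gene's own variance Acot3 (0.58) no longer passed and Acot12 (0.13) did. With 1 mouse left out, log2 fold changes ranged from -0.028 to 0.13 for Acsl1, -0.33 to -0.091 for Acsl4, -0.20 to 0.16 for Acot1, -0.48 to 0.18 for Acot2 and 0.41 to 0.81 for Acot3. The sign turned for Acsl1 without control replicate 3 or AF1 peptide replicate 2, for Acot1 without control replicate 1 or 3 or AF1 peptide replicate 3, and for Acot2 without AF1 peptide replicate 1. Over all genes, 286 were called higher and 304 lower. These counts were 435 and 459 with no filter, 122 and 602 with equal totals, and 506 and 484 with no fold threshold, 197 were lower with each gene's own variance, and leaving out 1 mouse gave 198 to 457 higher and 173 to 491 lower, the lowest without control replicate 2 and the highest without AF1 peptide replicate 1. More genes were tested with no filter, and the rule was looser with no fold threshold. For the other settings the cause was not tested.

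Replicate numbers are shared by the groups, but the mice differ and the labels do not say that the numbers pair them, so they were not taken as pairs. Same-numbered mice deviated from their group means with correlations of 0.235, 0.0238, 0.216 and -0.064. Differently numbered mice had correlations of -0.272 to 0.137, so that 0.235 and 0.216 lay above all of these. Whether the numbers link mice was not tested. With the replicate block, 341 genes were called higher and 392 lower, and Acsl5 (unadjusted limma p value 0.0117) and Acot3 (0.0214) kept their calls, with no change of call among the other 8 genes. The unadjusted limma p value was under 0.05 for 1244 genes with the block and for 990 without it. The difference between the classes of -0.24 ranged from -0.37 to -0.24 in the other scalings, pseudocounts and summed counts, and from -0.36 to -0.16 with 1 mouse left out. With 4 mice per group, the 95% confidence intervals of all of the 10 genes but Acsl1 and Acot12 reach a change of the size seen in Acsl5, so that a missing call does not show that a gene did not change.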

Other observations

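Some thioesterases were not among the 10 genes. Acot13, a small mitochondrial thioesterase, had 5426, 5784, 5622 and 4906 normalized counts in control and 5876, 5636, 5839 and 5202 in AF1 peptide-treated mice. The groups overlapped, and the log2 fold change was 0.05 (exact permutation p = 0.429). Acot7, an enzyme best known from the brain, averaged 670 ± 49.2 counts in control mice against 662 ± 105 with AF1 peptide (SD, n = 4 each). Acot11, which is known from brown fat, had 154, 174, 270 and 121 counts in control and 56.9, 164, 110 and 158 in treated mice. AF1 peptide replicate 1 was the lowest mouse, and the log2 fold change was -0.61 with all mice (exact permutation p = 0.2) and -0.28 without that mouse. Acot9, a mitochondrial enzyme, had 75.8 to 201 counts in control and 82.1 to 135 in treated mice. None of these 4 genes was called by limma, and their groups overlapped.

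The spread between mice differed by gene as well as by group. Acot1 and Acot3 varied more among control mice (coefficients of variation of 29.2% and 38.2%) than among treated mice (7.74% and 14.7%), whereas Acot2 and Acsl4 varied more among treated mice (46.9% and 21.2%, against 21.2% and 7.14%). With 4 mice per group these spreads were not tested against each other. The share of reads on 13 mitochondrial genes was 22.4 to 34.3% in control mice, 20.8% in AF1 peptide replicate 1 and 34.3 to 37.8% in the other treated mice.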
